A study of Rattus norvegicus with 8 samples.

Results

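Superoxide and hydrogen peroxide are removed in animal cells by a small set of enzymes, and the transcripts of 9 of them are described here after exposure of a rat alveolar macrophage cell line, NR8383, to carbon nanotubes. The genes are Sod1, Sod2, Cat, Gpx1, Gpx4, Prdx2, Prdx3, Prdx5 and Prdx6, taken as every non-control probe whose gene name in the scanner files is one of these symbols. This gave 11 probes for 9 genes out of 17444 genes tested, and all 9 genes were well above background on all 8 arrays. Cells labelled NM401 were kept for 4 h in medium without fetal bovine serum with NM401, a multi-walled carbon nanotube, at 0.17 µg/mL, and control cells were kept in the same way without nanotubes. Each group held 4 arrays. The labels number them as replicates and do not say whether they came from separate cultures, so p-values measure the spread between these arrays, which may be technical. All arrays came from a single cell line, first obtained by lavage of a normal rat lung, at 1 dose and 1 time. The RNA comes from whole cultures, in which fewer cells of a type and less RNA per cell cannot be told apart.

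Superoxide dismutases turn superoxide into hydrogen peroxide and oxygen, and the peroxide is then broken down by catalase, by glutathione peroxidases that spend glutathione, and by peroxiredoxins, most of which spend thioredoxin. The enzymes are spread over compartments, with catalase in peroxisomes, Sod2 and Prdx3 in mitochondria, Sod1, Gpx1 and Prdx2 largely in the cytosol, and Prdx5 in several of these places. Alveolar macrophages make superoxide through a phagocyte oxidase when they take up particles, and fibres of carbon nanotubes are among the particles studied for this.

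The probes read short stretches of each transcript, and 4 of the 60-base probes that lie in coding sequence are shown. For Gpx1 and Gpx4 these are the dimmer probes, and the main values below come from the brighter ones, which are not shown. All letters are in lower case because the whole probe hybridises. Positions are on rat build rn4 as the files give them.
Cat, chr3:88683063-88685007 (+): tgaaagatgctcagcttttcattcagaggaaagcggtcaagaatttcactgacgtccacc
Gpx4, chr7:11163817-11163876 (-): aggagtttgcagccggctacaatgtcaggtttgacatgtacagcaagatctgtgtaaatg
Gpx1, chr16_random:1046092-1046151 (+): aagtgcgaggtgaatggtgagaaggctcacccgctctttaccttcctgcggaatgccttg
Prdx5, chr1:209583751-209583924 (-): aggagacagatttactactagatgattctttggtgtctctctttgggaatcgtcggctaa
The Cat probe spans 1945 bases and the Prdx5 probe 174 bases of the genome, so that each reads across an intron, and the Gpx1 probe is placed by the files on a part of rn4 that is not assigned within a chromosome. Gpx1 and Gpx4 each had a second probe nearer the 3′ end, and the other genes had 1 probe each.

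In cells with NM401, the catalase transcript rose and the transcript of Gpx4, the glutathione peroxidase that reduces lipid peroxides in membranes, fell. Prdx2, Prdx5 and Prdx6 fell by smaller amounts, and Sod1, Sod2, Gpx1 and Prdx3 did not pass the test. Of the 9 genes, 1 was called higher and 4 were called lower (limma, Benjamini-Hochberg adjusted p below 0.05 over all probes tested), where 21.9% of all genes were called higher and 35.4% lower. Taken in either direction, 55.6% of the 9 genes were called, beside 57.3% of all genes, so the share called was near that of the whole array. Values of the NM401 and control arrays did not overlap in 6 of the 9 genes, or 66.7%, beside 53.2% of all genes. The median log2 fold change of the 9 genes was -0.19, and that of all genes was -0.10. The rule that picked probes by gene name used no measured value, but the 9 genes were chosen with earlier results of these data known.

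The values that follow are log2 processed signals minus the array's own 75th percentile over non-control spots, and a log2 fold change is NM401 minus control. Before scaling, the processed signal of each of the 9 genes was higher on every NM401 array than on every control array, as it was for 84.4% of all genes. The 75th percentile itself was 2692 ± 172 in NM401 and 1236 ± 224 in control (SD, n = 4 each, exact permutation p = 0.0286, two-sided, the smallest that 4 against 4 arrays allow). Every statement of higher or lower below is therefore relative to the bulk of the signal on the same array. Slide 1 held NM401 replicate 1 and, in another row, the 4 control arrays, and slide 2 held NM401 replicates 2 to 4, so that row and group cannot be told apart and only NM401 replicate 1 can be set against controls of its own slide. Of 10 macrophage markers, 8 were well above background on all 8 arrays, with Cd68, Csf1r and Msr1 among them. Of these 8, 1 was called higher and 4 lower, beside 21.9% and 35.4% of all genes. Marco, a scavenger receptor of alveolar macrophages, was well above background on 0 arrays and Itgax had no probe. The markers' summed signal, in units of the 75th percentile, was 123 to 130 in NM401 and 141 to 150 in control. This sum of linear values rests mostly on Lyz2 (mean log2 6.50 in NM401 and 6.67 in control) and Cd68 (4.38 and 4.74). Msr1, the marker called higher, adds little to it (mean log2 -2.35 in NM401 and -3.42 in control). Of 8 epithelial and 5 lymphocyte markers, 0 were bright enough to be tested. Of 5 fibroblast and endothelial markers, 3 were tested and 2 fell, beside 35.4% of all genes called lower. The summed signal of the 3 was 0.58 to 0.68 in NM401 and 0.75 to 0.80 in control. This sum rests mostly on Pecam1 (mean log2 -0.79 in NM401 and -0.70 in control), which was not called. Col1a2 (-4.75 and -3.54) and Cdh5 (-5.03 and -3.88), the genes that fell, make up a smaller part. Of 5 neutrophil markers, 2 passed the filter, mainly or wholly through the control arrays: Mpo was well above background on 0 NM401 and 4 control arrays, and S100a8, whose values overlapped between groups, on 1 NM401 and 3 control arrays. Their summed signal was 0.014 to 0.024 in NM401 and 0.049 to 0.077 in control. The part of these markers in the results below was not tested.

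**Figure D1:**
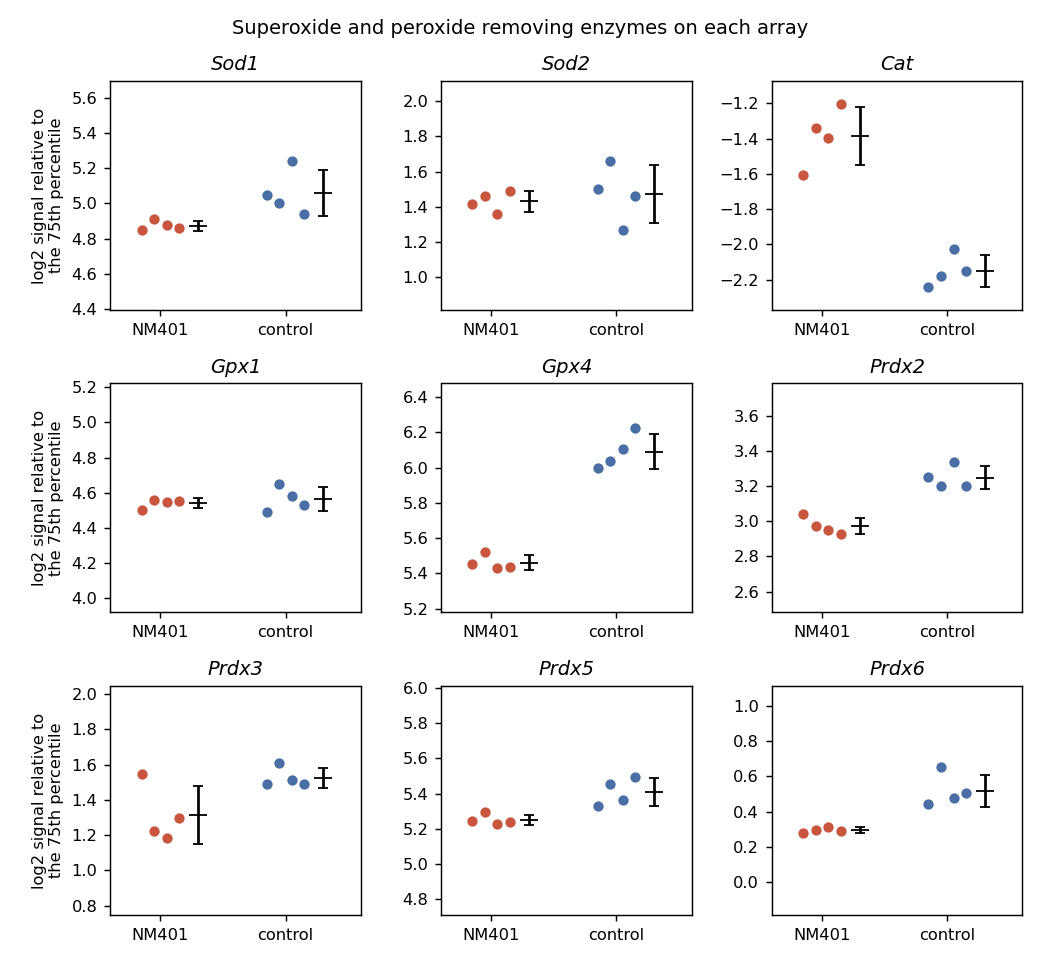
Log2 signal relative to the 75th percentile of the array (y axis, 1.3 log2 units in every panel) for the 9 genes on 4 NM401 arrays (left, red) and 4 control arrays (right, blue). Each point is 1 array, in the order of replicates 1 to 4, and the bar beside the points is the mean with its SD. The Cat points lie higher with NM401 and the Gpx4 points lower, both without overlap, while the Sod2 and Gpx1 points of the groups overlap.

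Catalase, which splits hydrogen peroxide without a reducing partner, gave -1.61, -1.34, -1.39 and -1.20 on NM401 arrays 1 to 4, against -2.24, -2.18, -2.02 and -2.15 on control arrays 1 to 4. All 4 NM401 values lay above all 4 control values, and NM401 replicate 1, the array that shared a slide with the controls, was the lowest of its group. The log2 difference for Cat was 0.76 ± 0.09 (SE, 4 arrays in each group, limma adjusted p = 0.000332), a 1.70-fold rise. In unscaled signal, Cat stood between 946 and 1110 on NM401 arrays and between 216 and 329 on control arrays. The rise stayed called with slide as a block, at 0.54 ± 0.11 (limma adjusted p = 0.0123), and within slide 1 alone, which leaves a single NM401 array, the same difference of 0.54 missed the threshold (limma adjusted p = 0.0524). Of all genes, 12.7% were called higher with slide as a block and 4.33% within slide 1. Cat was higher by at least 0.54 in each of the 19 alternatives tried.

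Superoxide dismutases showed small differences that did not pass. Sod1, the copper and zinc enzyme of the cytosol, gave 4.85, 4.91, 4.88 and 4.86 on NM401 arrays, against 5.05, 5.00, 5.24 and 4.94 on control arrays. The groups did not overlap, yet the difference of -0.19 ± 0.07 missed the threshold (SE, limma adjusted p = 0.0542). Its sign depended on the scaling, at 0.13 with quantile and 0.02 with median scaling, and it was called lower without control replicate 4, at -0.22 (limma adjusted p = 0.0292), and among probes well above background on all 8 arrays (limma adjusted p = 0.0464). Sod2, the manganese enzyme of mitochondria and a gene that inflammatory signals are known to induce, gave 1.42, 1.46, 1.36 and 1.49 on NM401 arrays, against 1.5, 1.66, 1.27 and 1.46 on control arrays. The NM401 values fell inside the range of the control values. The difference was -0.04 ± 0.09 with a 95% interval of -0.24 to 0.16 (limma adjusted p = 0.7), and its sign turned with quantile normalisation (0.02), with median scaling (0.16) and without control replicate 2 (0.02).

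Among the glutathione peroxidases, Gpx4 fell and Gpx1 did not pass. At its brighter probe, which starts at base 931 of the transcript, Gpx4 gave 5.45, 5.52, 5.43 and 5.44 on NM401 arrays, against 6.0, 6.04, 6.10 and 6.23 on control arrays. The NM401 values lay close together and all under the lowest control value. Gpx4 fell by 0.63 ± 0.06 log2 units (SE, limma adjusted p = 0.000155), so that the control level was 1.55-fold the NM401 level. With slide as a block Gpx4 fell by 0.64 ± 0.10 (limma adjusted p = 0.00642), and within slide 1, where a lone NM401 array is assumed to vary as the controls do, the same difference had a limma adjusted p of 0.0443, beside 20.2% of all genes called lower with the block and 7.8% within slide 1. Quantile normalisation left a difference of -0.16 (limma adjusted p = 0.0191) and median scaling one of -0.43 (limma adjusted p = 0.00184).

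The size of the Gpx4 difference depended on the probe. The probe printed above, which starts at base 529, gave 3.42, 3.49, 3.55 and 3.43 on NM401 arrays, against 3.61, 3.64, 3.74 and 3.86 on control arrays. It was also called lower, at -0.24 ± 0.07 (SE, limma adjusted p = 0.0172). Subtracting the probe at base 529 from the probe at base 931 on each array, which cancels the scaling of the array, left 1.88 to 2.04 on NM401 arrays and 2.37 to 2.40 on control arrays. These ranges did not overlap, and the difference between groups was -0.39 (exact permutation p = 0.0286, two-sided, the smallest possible). After quantile normalisation it was -0.10 (exact permutation p = 0.229), where the ranges overlapped. The probe at base 931 carries the polyadenylation hexamer AATAAA from its base 42. It is also among the brightest on the array, in the brightest 10% of genes by mean signal, where 58.5% were called lower and the median log2 fold change was -0.25. Sod1, Gpx1, Prdx2, Prdx5 and Txn1 lie in that brightest 10% too, as do Prdx1, Srxn1 and Hmox1, which rose. The part of brightness and of the place in the transcript in this result was not tested.

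Gpx1, the abundant cytosolic enzyme that shares with Gpx4 a selenocysteine in its active site, gave 4.50, 4.56, 4.55 and 4.56 on NM401 arrays, against 4.49, 4.65, 4.58 and 4.53 on control arrays. Here the groups overlapped. The difference was -0.02 ± 0.05 (SE, 95% interval -0.14 to 0.10, limma adjusted p = 0.724), and at the other probe, printed above, it was -0.05 ± 0.07 (limma adjusted p = 0.541). The probe difference within arrays was 0.03 (exact permutation p = 0.514), and each probe was printed at 10 spots per array. After quantile normalisation Gpx1 was called higher, at 0.26 ± 0.05 (limma adjusted p = 0.00478), so its direction rests on the scaling.

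**Figure D2:**
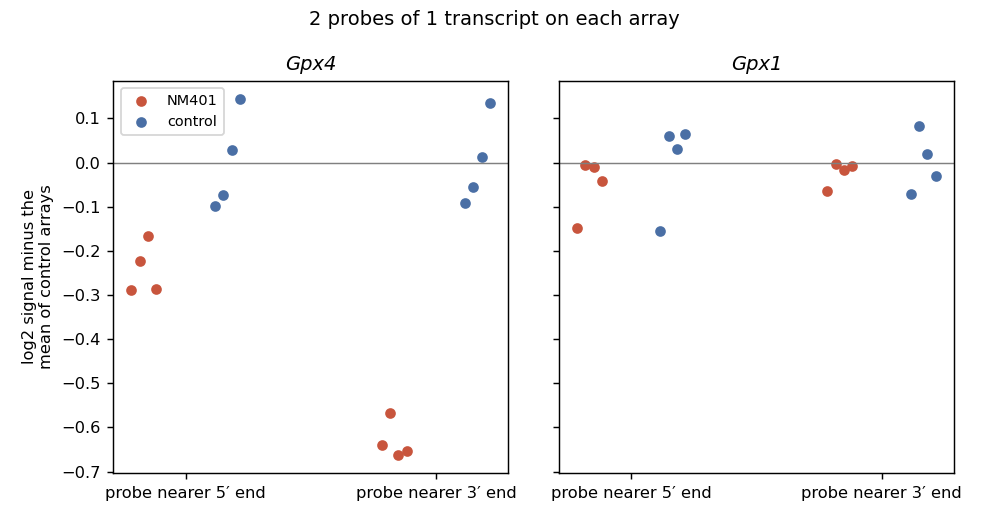
Log2 signal minus the mean of the control arrays (y axis) for the 2 probes of Gpx4 (left) and of Gpx1 (right) on NM401 arrays (red, left of each pair) and control arrays (blue). Each point is 1 array. At Gpx4 the probe nearer the 3′ end lay -0.63 below control and the probe nearer the 5′ end -0.24, while at Gpx1 the groups overlapped at both probes.

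Prdx2, Prdx3, Prdx5 and Prdx6 had differences between -0.16 and -0.28. Prdx2, an abundant cytosolic peroxiredoxin, gave 3.04, 2.97, 2.95 and 2.93 on NM401 arrays, against 3.25, 3.20, 3.34 and 3.20 on control arrays. It fell by 0.28 ± 0.05 (SE, limma adjusted p = 0.00331), with no overlap between groups. Prdx6, which reduces phospholipid peroxides with glutathione and also acts as a phospholipase, gave 0.28, 0.29, 0.32 and 0.29 on NM401 arrays, against 0.44, 0.65, 0.48 and 0.51 on control arrays. It fell by 0.23 ± 0.06 (SE, limma adjusted p = 0.0114), also with no overlap. With slide as a block Prdx2 stood at -0.21 ± 0.08 and Prdx6 at -0.24 ± 0.09, and neither was called (limma adjusted p = 0.0926 and 0.0898). After median scaling Prdx2 stood at -0.07 and Prdx6 at -0.02, and neither was called (limma adjusted p = 0.477 and 0.839). After quantile normalisation Prdx2 stood at -0.14 and was not called (limma adjusted p = 0.0577), while Prdx6 stayed called at -0.21 (limma adjusted p = 0.0125). Prdx2 lies in the brightest 10% of genes, whose median was -0.25.

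Prdx5, found in mitochondria, peroxisomes and the cytosol, gave 5.25, 5.29, 5.23 and 5.24 on NM401 arrays, against 5.33, 5.45, 5.36 and 5.49 on control arrays. Its fall of 0.16 ± 0.05 passed narrowly (SE, limma adjusted p = 0.0393) and it turned to a called rise of 0.19 after quantile normalisation (limma adjusted p = 0.0177). With slide as a block Prdx5 stood at -0.16 ± 0.09 and was not called (limma adjusted p = 0.202). After median scaling it stood at 0.05 (limma adjusted p = 0.598). Of the 19 alternatives, 12 took the call away and 3 turned the sign. Without any 1 of NM401 replicates 1 to 4, or without control replicate 2 or 4, it stood between -0.13 and -0.17 and missed the threshold (limma adjusted p = 0.0632 to 0.0947). Prdx3, the mitochondrial peroxiredoxin, gave 1.55, 1.22, 1.18 and 1.30 on NM401 arrays, against 1.49, 1.61, 1.51 and 1.49 on control arrays. NM401 replicate 1 lay within the control range and the other 3 NM401 arrays, which were on the other slide, lay below it. The difference over all arrays was -0.21 ± 0.09 and not called (SE, limma adjusted p = 0.0636), without NM401 replicate 1 it was -0.29 and called (limma adjusted p = 0.00533), and with slide as a block it was 0.02 (limma adjusted p = 0.866).

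**Figure D3:**
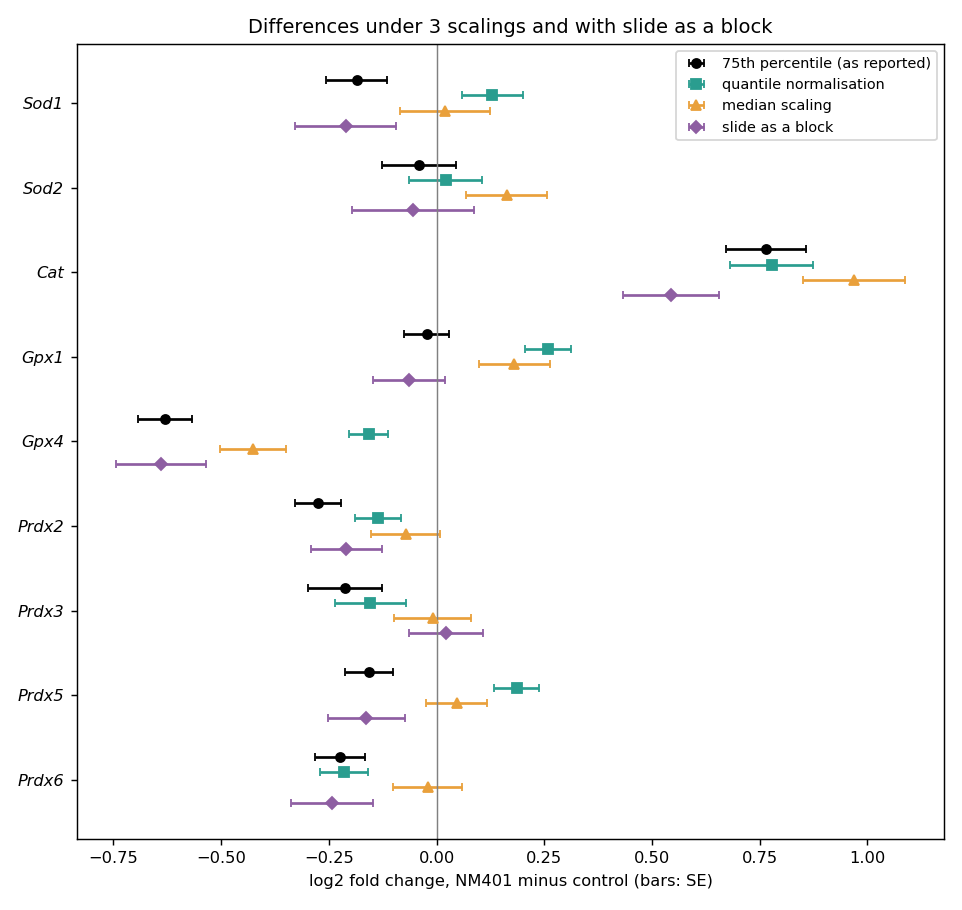
Log2 fold change, NM401 minus control, with its SE (x axis) for the 9 genes, on values scaled to the 75th percentile, with quantile or median scaling, and with slide as a block. Cat lies right of 0 and Gpx4 left of 0 in all 4 settings, whereas Sod1, Sod2, Gpx1 and Prdx5 change side after quantile normalisation.

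Quantile normalisation moved the 9 genes unequally, with Cat at 0.78 and Prdx6 at -0.21 near their values above, and Sod1, Gpx1, Gpx4 and Prdx5 further up. After quantile normalisation 3 of the 9 genes were called higher and 2 lower, beside 27.4% and 27.9% of all genes. Scaled to the spike-in probes, all 9 were higher, from 1.66 for Gpx4 to 3.06 for Cat, beside 97.8% of all genes called higher. On that scale every gene moves up by the same 2.29 log2 units. Median scaling also moves all genes alike and takes their median to 0.11, from which each gene keeps its distance. The spike-in log2 signal itself was lower in NM401, at 12.32 ± 0.15 against 13.47 ± 0.24 in control (SD, exact permutation p = 0.0286, two-sided). Whether equal amounts of spike-in RNA were added to both groups is not known. The difference between 2 genes on the same array does not depend on such a scaling. For Cat minus Gpx4 this difference was higher with NM401 by 1.40, and by 0.94 after quantile normalisation. This pair was chosen because its genes moved apart, so the value is a description. Of the 36 pairs of the 9 genes, 19 reached the smallest p of 0.0286 (exact permutation test, two-sided). That p arises only where the groups do not overlap, which held for 53.2% of all single genes. The share among pairs of all genes was not computed, so the count is a description. The adjustment over the 36 pairs takes this to 0.0542, so that no pair passed. No pair can go below that smallest p however large its difference, so the adjusted value says nothing about size. The pairs also share genes and are not independent. Those 19 included all 8 pairs with Cat, all 8 pairs with Gpx4 and 6 of the 8 pairs with Gpx1. None of the 6 pairs among the peroxiredoxins reached it, with differences between -0.12 and 0.07.

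The genes whose profile over the 8 arrays was nearest to that of Cat were Orc2, Pin4 and Casp4, with root mean square differences of 0.056 to 0.061 log2 units over 10861 named genes compared. Nearest to Gpx4 were Tmsb4x, Atp5po and Ssr4, with 0.031 to 0.038. These are likenesses of profile over 8 arrays and nothing more.

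Other enzymes of the same families moved in both directions. Of 7 further superoxide dismutases, glutathione peroxidases and peroxiredoxins, 2 could be tested. Prdx1, a cytosolic peroxiredoxin, gave 3.59, 3.83, 3.80 and 3.77 on NM401 arrays, against 3.07, 3.19, 3.17 and 3.02 on control arrays, and rose by 0.63 ± 0.07 (SE, limma adjusted p = 0.000256). Prdx4, the peroxiredoxin of the endoplasmic reticulum, gave 0.54, 0.39, 0.37 and 0.39 on NM401 arrays, against 1.10, 1.02, 1.20 and 1.22 on control arrays, and fell by 0.71 ± 0.07 (SE, limma adjusted p = 0.000134). Neither gene overlapped between groups, which held for 53.2% of all genes. Prdx1 missed the threshold within slide 1 (limma adjusted p = 0.0599). The secreted Sod3 was well above background on 3 of 8 arrays, and Gpx2, Gpx3, Gpx7 and Gpx8 on 0.

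Genes that recharge these enzymes were mixed. Of 17 tested genes of thioredoxin and glutathione recycling, 3 rose, 5 fell and 9 did not pass. Over all genes, 21.9% were called higher and 35.4% lower. The median of the list was -0.07, beside -0.10 for all genes. Srxn1, sulfiredoxin, which repairs peroxiredoxins oxidised too far, rose by 0.82 ± 0.05 (SE, limma adjusted p = 3.77e-05) and was called in each alternative; within slide 1 that call takes the spread from the control arrays alone. Txnip, the inhibitor of thioredoxin, fell by 1.11 ± 0.08 (limma adjusted p = 5.15e-05), and Txn1, thioredoxin itself, by 0.71 ± 0.05 (limma adjusted p = 6.57e-05). Txnip stayed called lower in every scaling except that to the spike-ins, whereas Txn1 stood at -0.09 and was not called after quantile normalisation. Glrx2, the mitochondrial glutaredoxin, rose by 0.27 ± 0.05 (limma adjusted p = 0.00293), and with slide as a block it stood at 0.25 and was not called (limma adjusted p = 0.0533). Gclm, the regulatory subunit of glutathione synthesis, was well above background on 0 arrays.

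Metal supply and selenocysteine insertion serve Sod1 and the selenium-containing peroxidases. Of 10 tested genes 3 rose, 5 fell and 2 did not pass, beside 21.9% called higher and 35.4% lower among all genes. The median of the list was -0.08. Atox1, a copper chaperone, fell by 0.48 ± 0.05 (SE, limma adjusted p = 0.000135). Ccs, the copper chaperone for superoxide dismutase, was also called lower. Genes needed to place selenocysteine into proteins fell too, with Eefsec, the elongation factor for it, at -0.57 ± 0.08 (limma adjusted p = 0.000819), Pstk at -0.53 ± 0.06 (limma adjusted p = 0.000309) and Sephs2, which makes the selenium donor, at -0.41 ± 0.06 (limma adjusted p = 0.000917). Sepsecs and Sephs1 were called higher, so the calls did not all go one way. With slide as a block, 0 of the 10 genes were called higher and 4 lower, beside 12.7% and 20.2% of all genes. Those 4 were Atox1, Eefsec, Pstk and Sephs2.

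Sources of superoxide and peroxide were also split. Of 7 tested genes, 1 rose, 3 fell and 3 did not pass, beside 21.9% called higher and 35.4% lower among all genes. The median of the list was -0.04. Cyba, the membrane subunit of the phagocyte oxidase that partners Cybb, fell by 0.51 ± 0.05 (SE, limma adjusted p = 0.000161). After quantile normalisation Cyba stood at -0.09 and was not called (limma adjusted p = 0.316). Its cytosolic partner Ncf1 fell by 0.34 ± 0.06 at the brighter of 2 probes (limma adjusted p = 0.00196). Over the mean of both probes Ncf1 stood at -0.22 and stayed called (limma adjusted p = 0.0119). After median scaling Ncf1 stood at -0.14 and was not called (limma adjusted p = 0.14). Cybb, the catalytic subunit, did not pass. Rac2, a GTPase that switches the oxidase on, rose by 0.60 ± 0.17 (limma adjusted p = 0.0175). Acox3, a peroxisomal oxidase that makes hydrogen peroxide, fell by 0.21 ± 0.07 (limma adjusted p = 0.0267), and without any 1 of NM401 replicates 1 to 3 or control replicates 1, 3 and 4 it stood between -0.18 and -0.21 and was not called (limma adjusted p = 0.0512 to 0.0724). With slide as a block Ncf1 stood at -0.21, Rac2 at 0.59 and Acox3 at -0.23, and none of these 3 was called (limma adjusted p = 0.0719, 0.155 and 0.144).

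Of 9 genes of NRF2 and FOXO control, 2 rose, 1 fell and 6 did not pass. Over all genes, 21.9% were called higher and 35.4% lower. NRF2 is a transcription factor that induces many antioxidant genes and is held down by Keap1. Hmox1, haem oxygenase and a usual target, rose by 0.78 ± 0.18 (SE, limma adjusted p = 0.00725), with 4.02, 4.22, 4.28 and 4.43 on NM401 arrays, against 3.08, 3.57, 3.27 and 3.93 on control arrays. The lowest NM401 value was above the highest control value, and with slide as a block the rise of 0.56 was not called (limma adjusted p = 0.174). Keap1 rose by 0.26 ± 0.06 (limma adjusted p = 0.00765) but was not called with slide as a block (limma adjusted p = 0.2). Mafg, a partner of NRF2 on DNA, stood at 0.19 ± 0.08 and was not called (limma adjusted p = 0.0642). Nfe2l2, which encodes NRF2, and its target Nqo1 did not pass either. Foxo1, a transcription factor linked to catalase and Sod2 expression, fell by 0.66 ± 0.18 (limma adjusted p = 0.0141) and was not called with slide as a block (limma adjusted p = 0.213) or after median scaling (limma adjusted p = 0.0556).

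**Figure D4:**
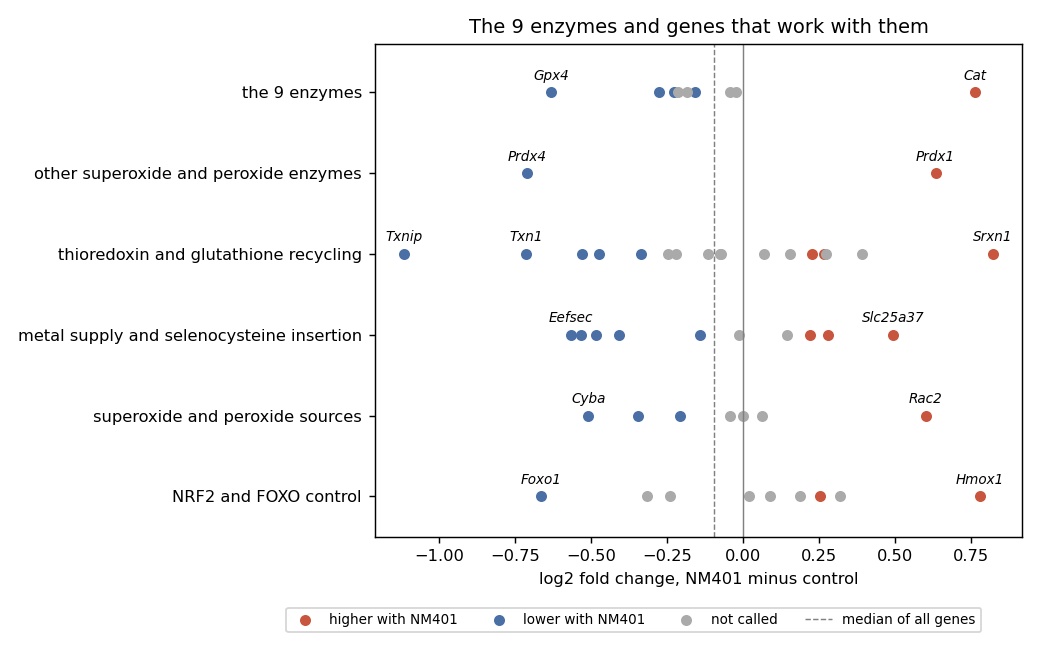
Log2 fold change, NM401 minus control (x axis), of the 9 enzymes and of the tested genes in 5 lists of genes that work with them (rows). Red points were called higher with NM401, blue points lower and grey points were not called, and the dashed line marks the median of all genes at -0.10. Points of both colours stand in every row, with Cat, Prdx1, Srxn1 and Hmox1 among those furthest right.

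Promoter sequences were looked up for the motif TGACNNNGC, the core of the element that NRF2 binds, for GTAAACA, a FOXO motif, and for CCAAT, on both strands of the 250 bases before to 50 bases after each gene's start (RefSeq, GRCr8). Of the 9 genes 8 had an entry. TGACNNNGC occurred in 2 of the 8, Sod2 and Prdx5, beside 12.2% of 27457 promoters. GTAAACA occurred in 0 of the 8, beside 3.76% of promoters. CCAAT occurred in 3 of the 8, Sod1, Cat and Gpx4, beside 37.7% of promoters. The 250 bases before the start are shown for Cat and Gpx4, the genes that moved furthest in opposite directions. CCAAT and its reverse complement ATTGG are in capitals.
Cat, GRCr8 chr3:110329527-110329776 (-): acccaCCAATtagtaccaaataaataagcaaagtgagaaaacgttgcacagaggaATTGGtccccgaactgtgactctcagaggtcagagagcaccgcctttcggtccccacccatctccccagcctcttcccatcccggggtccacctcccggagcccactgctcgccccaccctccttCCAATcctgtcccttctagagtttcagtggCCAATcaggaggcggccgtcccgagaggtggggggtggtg
Gpx4, GRCr8 chr7:10303630-10303879 (-): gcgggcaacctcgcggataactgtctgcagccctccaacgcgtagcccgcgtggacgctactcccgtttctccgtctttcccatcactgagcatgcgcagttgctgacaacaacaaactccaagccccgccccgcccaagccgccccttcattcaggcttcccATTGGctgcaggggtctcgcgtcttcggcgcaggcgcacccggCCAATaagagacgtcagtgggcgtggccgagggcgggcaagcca
Matches of this kind describe the letters in these windows only.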

How the data were processed

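Cy3-labelled cRNA of 8 samples was measured on Agilent arrays in 1 colour, per the labels. The authors deposited spot intensity values that, per the file headers, came from Agilent Feature Extraction 11.0.1.1 with spatial and multiplicative detrending within each array switched on. The deposited series table equals the median pixel intensity of the scanner files in 503808 of 503808 values. From these, outlier spots were left out, log2 of the processed signal minus the array's 75th percentile over 58717 non-control spots was averaged over the spots of a probe, and 21684 probes that 4 or more of the 8 arrays held well above background were tested with limma 3.58.1 in R 4.3.3 (two-sided, no covariate, Benjamini-Hochberg, adjusted p below 0.05). A gene stands for its brightest tested probe. The number of arrays limits the precision. The fit was tested on simulated data. The alternatives were another background correction, 3 scalings, 2 filters, probe means, the series table, replicate and slide blocks, slide 1 alone and each array left out. The 9 genes and the lists were chosen with earlier results of these data known, and in each list up to 4 genes with the smallest p were named with values and others by name only. A gene of the superoxide and peroxide sources is not reported here. For Cat and Gpx4 the 3 genes nearest in profile were named. The differences within arrays and the 36 pairs were added after seeing the data.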

Additional observations from a re-analysis of the deposited data

How the results depend on the processing

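Of 513 values of 27 named genes under 19 alternatives, 416 kept their direction and side of the threshold, 54 lost the call, 10 gained it and 33 changed sign. Spike-in and median scaling move all genes alike and gave 19 and 4 of the sign changes; among the 459 values under the other settings, 392 kept direction and side, 49 lost the call, 8 gained it and 10 changed sign. Among the 9 enzymes, the count called higher was 3 after quantile normalisation, 9 with spike-in scaling and 0 within slide 1, and the count called lower was 2 after quantile normalisation, 1 after median scaling, 0 with spike-in scaling, 2 with no filter (21.4% of all genes), 1 with slide as a block and 1 within slide 1. Leaving out each array gave 1 higher and 3 to 4 lower. Over all genes, 3823 were called higher and 6178 lower, against 6113 and 3360 after median scaling, 17055 and 54 with spike-in scaling, 2216 and 3525 with slide as a block, and 755 and 1361 within slide 1, while normexp called 9403 lower. Without single arrays these counts were 3266 to 3712 higher and 5411 to 6146 lower. The slide contrasts rest on NM401 replicate 1, and within slide 1 fewer samples entered. Otherwise the cause was not tested. With replicate block, 1 of the 9 was higher and 3 lower, beside 20.3% and 33.5% of all genes, and Prdx5 stayed at -0.16 and lost its call (limma adjusted p = 0.0785). The numbers were not taken as pairs, since same-numbered arrays' deviations correlated at 0.188, -0.0066, 0.0853 and -0.056.

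With spike-in scaling these signs turned: Acox3 2.09, Atox1 1.81, Cyba 1.78, Eefsec 1.73, Foxo1 1.63, Gpx1 2.27, Gpx4 1.66, Ncf1 1.95, Prdx2 2.02, Prdx3 2.08, Prdx4 1.58, Prdx5 2.14, Prdx6 2.07, Pstk 1.76, Sephs2 1.89, Sod1 2.11, Sod2 2.25, Txn1 1.58 and Txnip 1.18. Gpx1 turned to 0.010 with normexp, 0.26 with quantile normalisation, 0.18 with median scaling and 0.015 in the series table. Prdx3 turned to 0.022 with slide as a block and within slide 1. Quantile normalisation and median scaling gave 0.19 and 0.047 for Prdx5, 0.13 and 0.019 for Sod1, and 0.021 and 0.16 for Sod2. Leaving out each array, Gpx1 ranged between -0.047 and 0.0045 and Sod2 between -0.11 and 0.022.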
